A study of Mus musculus with 3 samples.

Results

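The pair of miR-143 and miR-145 and the pair of miR-221 and miR-222 are microRNAs (miRNAs) tied to opposite states of vascular smooth muscle, and their levels were read in exosomes from cultured mouse stromal cells. Their members are mmu-miR-143-3p, mmu-miR-145a-5p and mmu-miR-145a-3p on the contractile side, and mmu-miR-221-3p and mmu-miR-222-3p on the proliferative side, called miR-143-3p and so on below. They were chosen by name, as 5 of the 1881 mouse miRNAs on the array. No measured value entered that rule, though earlier results of these data were known. The study compared the miRNAs carried by exosomes, small vesicles released into the medium, after 3 culture conditions of mesenchymal stem cells (MSCs). The conditions were hypoxia together with GW4869 (H+G-Exo), an inhibitor of the neutral sphingomyelinase that takes part in exosome formation, hypoxia alone (H-Exo) and normoxia (N-Exo), each for 24 h. All MSCs came from the bone marrow of male C57BL/6 wild-type mice aged 4 to 6 weeks and were used at passages 3 to 6. For each kind of exosome the medium of 10 dishes was collected, and 1 one-colour array per group was analysed, although the submitters' design text mentions 3 samples of each; whether RNA was pooled is not given in the sources used. With 1 array per group, differences have no check by replicates and carry no p-value, and every comparison below is between single arrays, not between replicated conditions.

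In vascular smooth muscle, miR-143 and miR-145 are made from 1 shared locus that serum response factor and myocardin switch on, and they hold the cells in the contractile state by repressing regulators such as Klf4, Klf5 and Elk1. miR-221 and miR-222 form a separate cluster that platelet-derived growth factor induces, and they favour proliferation by repressing the cell cycle inhibitors Cdkn1b and Cdkn1c. They also repress the receptor Kit. MSCs can take on smooth muscle features, and both pairs are expressed in stromal cells.

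The miR-221 and miR-222 pair is shown first by sequence, because its 2 members share the seed with which they bind targets and differ in the stretch that the array probes read. The mature sequences are from RefSeq (GRCm38.p6), written 5′ to 3′ with the seed, bases 2 to 8, in capitals. miR-221-3p lies on chrX:19146307-19146329 and miR-222-3p on chrX:19146901-19146923, both on the minus strand.
miR-221-3p: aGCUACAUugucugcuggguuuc
miR-222-3p: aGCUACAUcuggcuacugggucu
Both are 23 bases long and have the same base at 11 of 23 positions, with the first 8 bases shared. The seed GCUACAU was found in 3 of 1738 mature mouse miRNAs of that table, and miR-1928, the remaining one, was not detected on any array. The array probes follow, 5′ to 3′ as DNA, with the bases that pair with the seed in capitals.
miR-221-3p, longer probe: gaaacccagcagacaATGTA
miR-221-3p, shorter probe: gaaacccagcagacaATGT
miR-222-3p, longer probe: acccagtagccagA
miR-222-3p, shorter probe: acccagtagccag
The miR-221-3p probes pair with bases 4 to 23 and 5 to 23 of their target, and at any ungapped position with at most 8 of 20 and 7 of 19 bases of miR-222-3p. The miR-222-3p probes pair with bases 8 to 21 and 9 to 21 of their target, and with at most 10 of 14 and 10 of 13 bases of miR-221-3p. Signal shared between the 2 miRNAs on these probes was not tested.

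In the array's own annotation, on the mm9 build, the longer probe of miR-221-3p matches chromosome X from 18723483 to 18723501, and that of miR-222-3p matches it from 18724075 to 18724087. The longer probe of miR-143-3p matches chromosome 18 from 61808895 to 61808909, that of miR-145a-5p from 61807494 to 61807507, and the 4 probes of miR-145a-3p all end at 61807546. Some of these spans are 1 base shorter than the probe, and the origin of counting is not given in the files. In RefSeq's gene table Mir143 and Mir145a both lie within Carmn, the long non-coding RNA gene that hosts them, with 0 genes between them. Mir221 and Mir222 lie within none and are also direct neighbours, with 0 genes between them.

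The arrays shared 1 slide and 1 scan time. They detected 675 miRNAs in H+G-Exo, 586 in H-Exo and 685 in N-Exo, counting a probe as detected if over 50% of its spots passed the software's flag for being well above background. A scaled signal is the mean over the spots of the brightest probe of a miRNA, relative to the 75th percentile that the array shows over probes detected on all 3 arrays. That percentile was 468.9 intensity units in H+G-Exo, 235.0 in H-Exo and 417.3 in N-Exo, so scaling raises H-Exo relative to the other two. A value with ± carries the SD among the spots of a single probe on a single array, that is, technical error. As a check of the labelled cell type, 5 of 5 mesenchymal marker miRNAs were detected on every array, against 2 of 6 blood markers, 0 of 2 endothelial markers, at most 2 of 5 striated muscle markers and at most 1 of 2 liver and serum markers. No miRNA in this set separates smooth muscle from other stromal cells. In such vesicle RNA, fewer vesicles of a kind and less miRNA per vesicle cannot be told apart.

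Among the members measured on both arrays of a comparison, miR-143-3p had the largest difference each time under the reported setting. Its scaled signal was 0.0850 ± 0.0121 in H+G-Exo over 15 spots, 0.218 ± 0.0168 in H-Exo over 14 spots and 0.999 ± 0.0532 in N-Exo over 14 spots. The lowest, median and highest spot were 0.0604, 0.0852 and 0.104 in H+G-Exo, 0.183, 0.218 and 0.253 in H-Exo, and 0.905, 1.01 and 1.08 in N-Exo. The 3 arrays did not overlap in these spot values: N-Exo was highest, H-Exo stood between and H+G-Exo was lowest. The shorter probe gave the same order, with 0.0532 in H+G-Exo, 0.150 in H-Exo and 0.710 in N-Exo. Before scaling the longer, brighter probe read 39.9 intensity units in H+G-Exo, 51.3 in H-Exo and 417.0 in N-Exo. The H+G-Exo and H-Exo readings were thus close before scaling, and their spot ranges overlapped there.

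miR-145a-5p, the guide strand of miR-145, was near the detection limit in H+G-Exo and H-Exo. Its scaled signal was 0.0466 ± 0.00925 in H+G-Exo over 14 spots, 0.0651 ± 0.0104 in H-Exo over 14 spots and 0.262 ± 0.0284 in N-Exo over 15 spots. The lowest, median and highest spot were 0.0328, 0.0469 and 0.0669 in H+G-Exo, 0.0512, 0.0624 and 0.0852 in H-Exo, and 0.208, 0.263 and 0.299 in N-Exo. Of the probe's 15 spots, 11 were well above background in H+G-Exo, 3 in H-Exo and 15 in N-Exo, so the miRNA counted as detected in H+G-Exo and N-Exo and as not detected in H-Exo. The N-Exo spots lay above all spots of the other two arrays. Before scaling the probe read 21.8 intensity units in H+G-Exo, 15.3 in H-Exo and 109.3 in N-Exo. The spots of H+G-Exo and H-Exo overlapped there. After scaling, H+G-Exo and H-Exo also overlapped and have no order for this miRNA, since both means lie below the floor of 0.0653. That floor is the lowest detected signal of H-Exo, which is higher than those of the other two arrays, and lower values were raised to it before log2 was taken.

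The shorter probe of miR-145a-5p had 5 of 15 spots well above background in H+G-Exo, 1 in H-Exo and 15 in N-Exo, so it was detected in N-Exo alone. miR-145a-3p, the opposite strand of the same hairpin, was not detected by any of its 4 probes: 0 spots were well above background on each of the 3 arrays. Its brightest probe had scaled signals of -0.0047 in H+G-Exo, 0.0047 in H-Exo and 0.0040 in N-Exo, around 0 as the background-subtracted negative controls are. No level or fold is given for it.

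**Figure D1:**
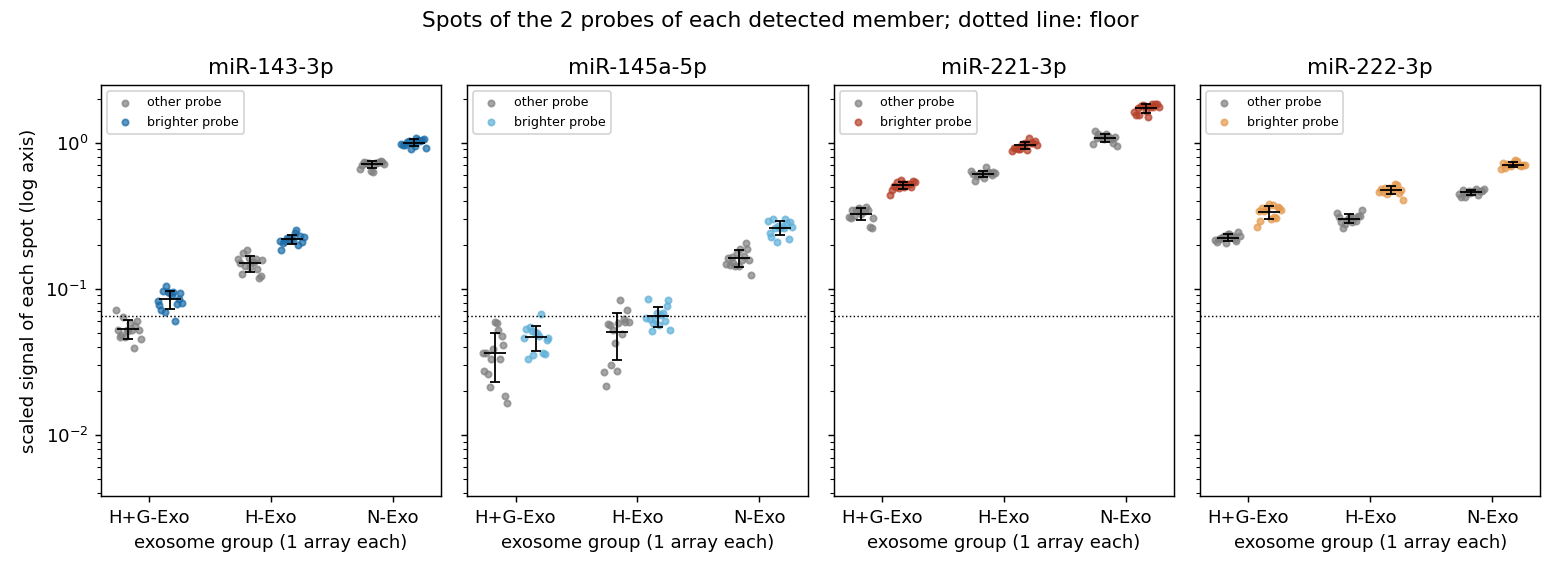
Scaled signal of every spot (log axis) of the 2 probes of miR-143-3p, miR-145a-5p, miR-221-3p and miR-222-3p, by exosome group with 1 array each; black bars are the mean and SD over spots, and the dotted line is the floor of 0.0653. Within each probe the N-Exo spots are the highest, and the miR-145a-5p spots of H+G-Exo and H-Exo lie around the floor.

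The growth-associated pair was detected on every array. miR-221-3p had a scaled signal of 0.511 ± 0.0309 in H+G-Exo over 15 spots, 0.959 ± 0.0582 in H-Exo over 14 spots and 1.71 ± 0.116 in N-Exo over 15 spots. The lowest, median and highest spot were 0.441, 0.516 and 0.557 in H+G-Exo, 0.876, 0.967 and 1.08 in H-Exo, and 1.49, 1.74 and 1.85 in N-Exo. The spot ranges did not overlap and had the same order as those of miR-143-3p. Before scaling the signal was 239.7 intensity units in H+G-Exo, 225.5 in H-Exo and 715.0 in N-Exo, and the spot ranges of H+G-Exo and H-Exo overlapped.

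miR-222-3p, which shares the seed of miR-221-3p, had a scaled signal of 0.336 ± 0.0341 in H+G-Exo over 15 spots, 0.472 ± 0.0301 in H-Exo over 13 spots and 0.708 ± 0.0271 in N-Exo over 13 spots. The lowest, median and highest spot were 0.264, 0.345 and 0.378 in H+G-Exo, 0.406, 0.473 and 0.525 in H-Exo, and 0.657, 0.705 and 0.761 in N-Exo. The order was again N-Exo, H-Exo, H+G-Exo, with no overlap. Before scaling the order differed: the signal was 157.7 intensity units in H+G-Exo, 111.0 in H-Exo and 295.3 in N-Exo, with H+G-Exo above H-Exo and no overlap of their spots. The direction of miR-222-3p between H+G-Exo and H-Exo therefore depends on the scaling.

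The first comparison, H-Exo against N-Exo, asks what hypoxia changes in the vesicles. miR-143-3p fell and miR-145a-5p, detected in N-Exo alone, was lower, while miR-221-3p and miR-222-3p had smaller differences in the same direction. By the rule used, a miRNA fell or rose if both arrays detected it and the difference was 2-fold or larger and over 2 standard errors among spots. miR-143-3p was 4.58-fold lower (log2 difference -2.20, SE 0.04 over spots), the 4th lowest difference of 582 miRNAs measured on both arrays. For miR-145a-5p the drop in H-Exo was at least 4.01-fold. That bound depends on the setting: it was 2.01-fold with the floor doubled, 2.47-fold on the shorter probe and 1.34-fold with normexp background correction. miR-221-3p was 1.79-fold lower (log2 difference -0.84, SE 0.03) and miR-222-3p 1.50-fold lower (-0.58, SE 0.03), both short of the 2-fold rule under the reported scaling. miR-221-3p passed it in 4 of 7 scalings, at up to 3.20-fold lower, and miR-222-3p in 2 of 7, at up to 2.68-fold lower.

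Of the 3 members measured on both arrays, 1 passed the rule, beside 62 miRNAs that fell among the 582 (10.7%) and 25 that rose (4.3%). The count over 3 members is not read further. The median log2 difference over all 582 was 0.34, so relative to the middle miRNA miR-143-3p stood at -2.54, miR-221-3p at -1.18 and miR-222-3p at -0.93. From the lowest, miR-221-3p ranked 82nd and miR-222-3p 102nd. The spot ranges of each of these 3 members were lower without overlap, which held for 19.8% of all 582 miRNAs.

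The second comparison, H+G-Exo against H-Exo, asks what the inhibitor adds to hypoxia. miR-143-3p fell again, 2.57-fold (log2 difference -1.36, SE 0.06), ranking 89th of 566 from the lowest. miR-145a-5p was detected in H+G-Exo and not in H-Exo. Under the reported scaling its signal in H+G-Exo was not above the level that H-Exo could have hidden, and no fold is given. miR-221-3p was 1.88-fold lower (log2 difference -0.91, SE 0.03) and miR-222-3p 1.40-fold lower (-0.49, SE 0.05), neither past the rule. Here 1 of 3 members fell, beside 148 of 566 miRNAs (26.1%), with 35 (6.18%) risen. The median over all 566 was -0.42, which places miR-143-3p at -0.94, miR-221-3p at -0.49 and miR-222-3p at -0.07 relative to it. Spot ranges were lower without overlap for all 3 members and for 38.5% of all miRNAs measured.

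These differences between H+G-Exo and H-Exo rest on the scaling. Without scaling, miR-143-3p was 1.29-fold lower in H+G-Exo, miR-221-3p was 1.06-fold higher and miR-222-3p was 1.42-fold higher. miR-145a-5p, not detected in H-Exo, was 1.16-fold higher in H+G-Exo there, with its H-Exo signal raised to that setting's floor. miR-143-3p passed the rule in 3 of 7 scalings, with log2 differences of -1.36 to -0.36. miR-222-3p ranged over the same scalings between -0.49 and 0.51, and was above 0 with no scaling and with either spike-in scaling. Relative to the median of all miRNAs, miR-143-3p stood at -0.94 under the reported setting, -0.58 with the floor doubled and -0.23 with normexp background correction.

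The third comparison, H+G-Exo against N-Exo, spans both changes. It shares its arrays with the other comparisons, so its values are not independent of them. All 4 detected members fell. miR-143-3p was 11.8-fold lower in H+G-Exo (log2 difference -3.56, SE 0.06), the 6th lowest of 606, and 10.5-fold lower before scaling. miR-145a-5p was 4.01-fold lower (log2 difference -2.00, SE 0.04) with its H+G-Exo signal raised to the floor. That SE holds the spot error of N-Exo alone, since a signal raised to the floor carries none. Without the floor miR-145a-5p was 5.63-fold lower (log2 difference -2.49, SE 0.09 with both arrays' spots). miR-221-3p was 3.35-fold lower (log2 difference -1.74, SE 0.03) and ranked 85th.

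In the same comparison miR-222-3p was 2.10-fold lower (log2 difference -1.07, SE 0.04), ranked 148th and lay close to the 2-fold rule, which it passed in 2 of 7 scalings. The 4 of 4 that fell stand beside 158 of 606 miRNAs (26.1%) that fell and 111 (18.3%) that rose. The 4 members come from 2 clusters and are not 4 independent cases. The median over all 606 was -0.05. Spot ranges were lower without overlap for all 4 members and for 30.4% of miRNAs measured.

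**Figure D2:**
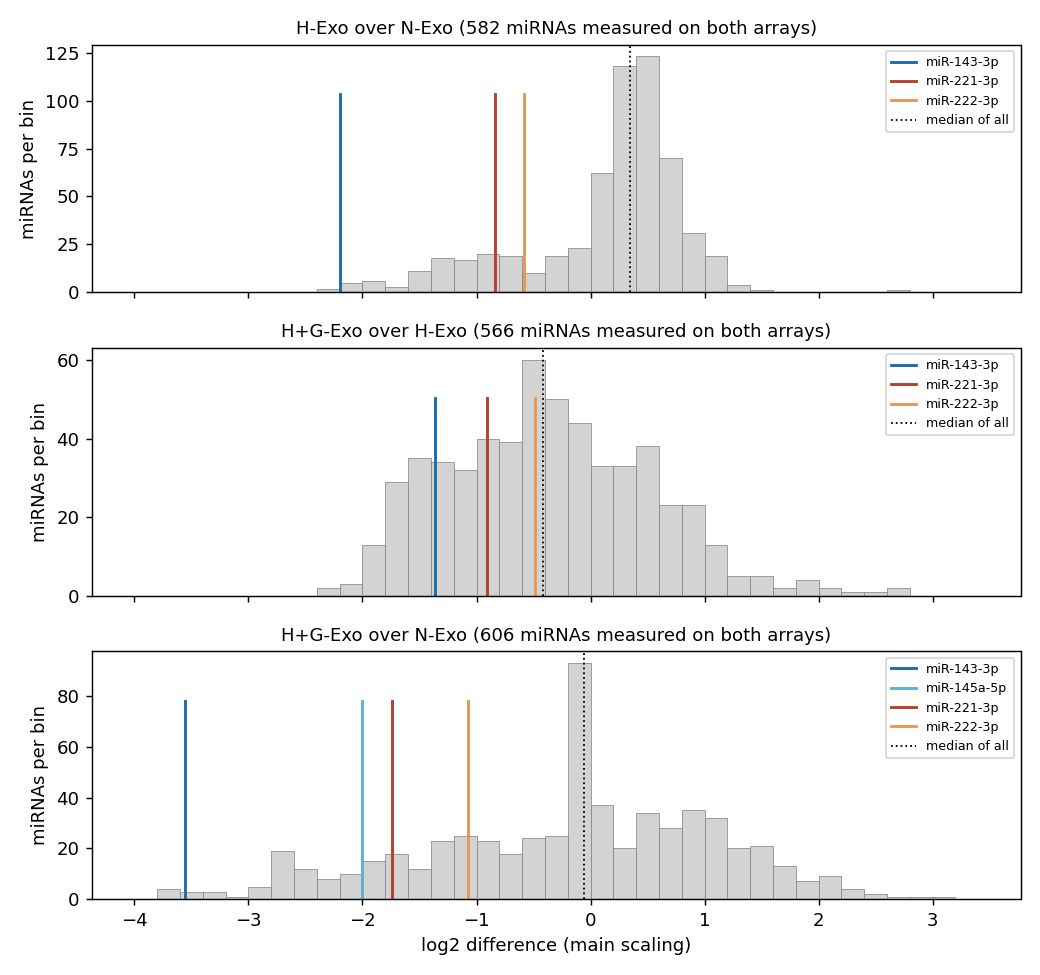
Histograms of the log2 difference of scaled signals over all miRNAs measured on both arrays (582, 566 and 606), with the members as coloured lines and the median as a dotted line (0.34, -0.42 and -0.05). miR-143-3p lies at the left end in H-Exo over N-Exo (-2.20) and in H+G-Exo over N-Exo (-3.56) and inside the main mass in H+G-Exo over H-Exo (-1.36).

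The members were also set against miRNAs of similar age in the databases, since miRNAs with later numbers differed from the rest. Among miRNAs numbered below 3000 the median log2 difference was 0.10 over 285 miRNAs in H-Exo over N-Exo, -0.73 over 274 in H+G-Exo over H-Exo and -0.70 over 295 in H+G-Exo over N-Exo. Within these, miR-143-3p ranked 4th, 62nd and 6th from the lowest, miR-221-3p 81st, 115th and 81st, and miR-222-3p 99th, 161st and 125th. miR-145a-5p, measured in H+G-Exo over N-Exo alone, ranked 64th. In H+G-Exo over H-Exo, miR-222-3p was thus 0.24 above this median while the other two were below it. Of these older miRNAs, 21.8%, 39.1% and 44.1% fell in the 3 comparisons.

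The log2 difference also moved with the base composition of the probe: over all miRNAs measured, its Spearman rho with the probe's GC content was 0.44, 0.42 and 0.49 in the 3 comparisons, as a description across miRNAs that share 3 arrays. The median probe had 60% GC, and the members had less: 45% for miR-221-3p, 50% for miR-143-3p and 57.1% for both miR-145a-5p and miR-222-3p. Its part in the members' differences was not tested.

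**Figure D3:**
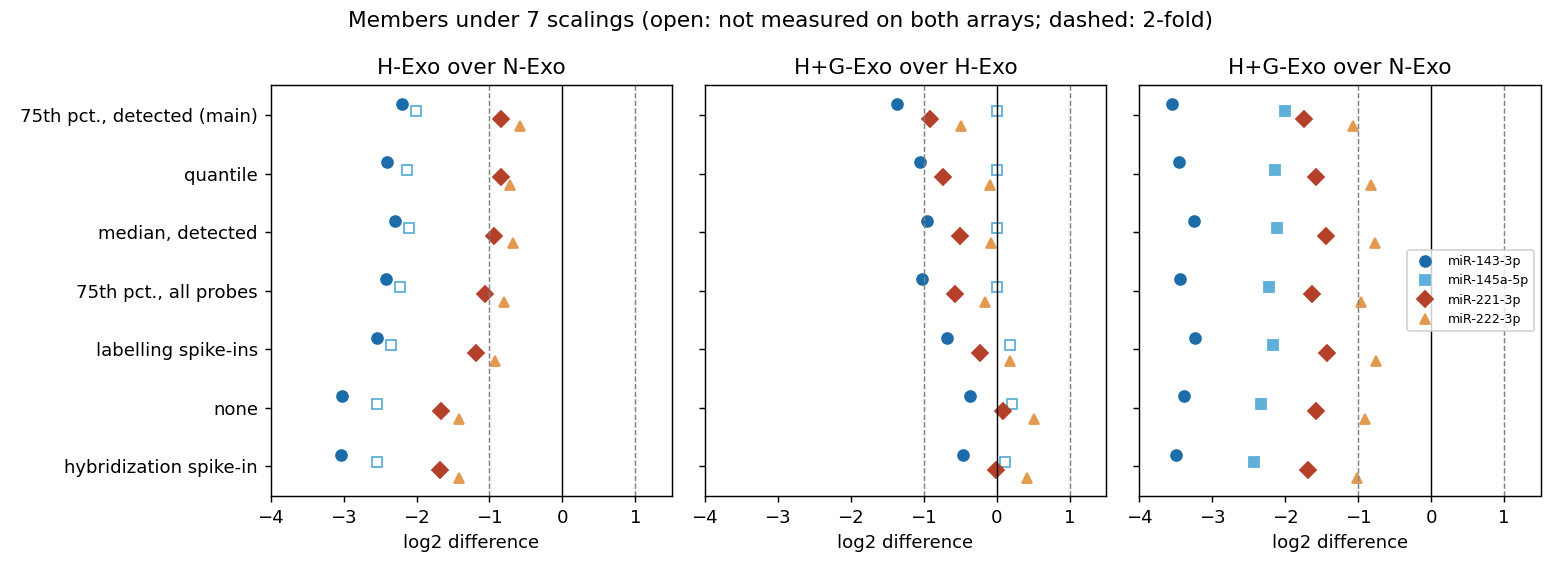
Log2 difference of 4 members under 7 ways of scaling the arrays, in the 3 comparisons; open squares mark miR-145a-5p where it was not detected on both arrays, and dashed lines mark 2-fold. miR-143-3p stays left of the 2-fold line in H-Exo over N-Exo (-3.04 to -2.20) and in H+G-Exo over N-Exo (-3.56 to -3.23), whereas in H+G-Exo over H-Exo miR-143-3p, miR-221-3p and miR-222-3p move towards or across 0 without scaling.

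Whether the pairs changed unequally can be asked without choosing a scaling, because a factor applied to a whole array cancels in the difference between 2 miRNAs. Within each comparison miR-143-3p was further down than miR-221-3p. In H-Exo over N-Exo the difference of their log2 differences was -1.36 (SE 0.05 over spots), which means that miR-143-3p changed 2.57-fold more than miR-221-3p. In H+G-Exo over H-Exo it was -0.45 (SE 0.07), and in H+G-Exo over N-Exo -1.81 (SE 0.07). Against miR-222-3p the same contrast was -1.61 (SE 0.05), -0.87 (SE 0.08) and -2.48 (SE 0.07). These ratios show unequal change and not that either pair stayed level.

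The 2 members that share a seed also differed from each other. miR-221-3p minus miR-222-3p was -0.25 (SE 0.05) in H-Exo over N-Exo, -0.42 (SE 0.06) in H+G-Exo over H-Exo and -0.67 (SE 0.05) in H+G-Exo over N-Exo, and it was below 0 in each comparison under the 7 settings that moved it, the other 8 alternatives giving the same value. miR-145a-5p could be set against the others in H+G-Exo over N-Exo alone. There miR-143-3p minus miR-145a-5p was -1.55 (SE 0.07), miR-145a-5p minus miR-221-3p -0.26 (SE 0.05) and miR-145a-5p minus miR-222-3p -0.93 (SE 0.06). These SEs leave out the spot error of miR-145a-5p in H+G-Exo, where its signal was raised to the floor. Without the floor the log2 difference of miR-145a-5p itself was -2.49 in place of -2.00, which would narrow its gap to miR-143-3p and widen the other two.

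Most scalings apply 1 factor per array and cannot move the contrast of miR-143-3p with miR-221-3p. It kept its sign under the 7 settings that moved it in H-Exo over N-Exo (-1.55 to -0.60) and under the 8 that did in H+G-Exo over N-Exo (-1.94 to -0.36). In H+G-Exo over H-Exo it turned to 0.17 with the floor doubled and to 0.24 with normexp background correction. Both of these settings raise weak signals, and the unscaled miR-143-3p signal in H+G-Exo was 2.26-fold over the lowest detected signal of that array, against 3.34-fold in H-Exo and 22.1-fold in N-Exo.

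**Figure D4:**
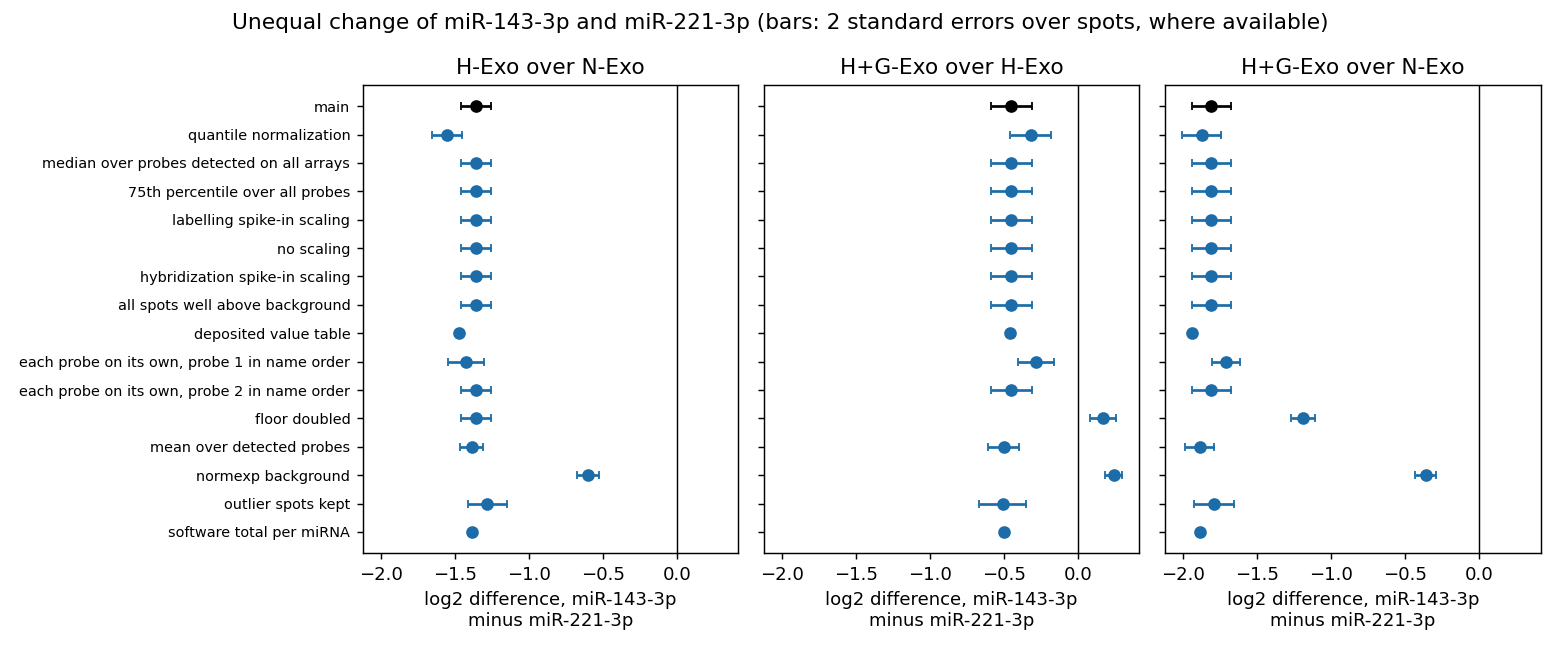
Log2 difference of miR-143-3p minus that of miR-221-3p under each of 16 settings, in the 3 comparisons; bars are 2 standard errors over spots, where available, and the reported setting is black. Many points repeat the reported value, since 1 factor per array cancels. All are below 0 in H-Exo over N-Exo and in H+G-Exo over N-Exo, and 2 points, 0.17 and 0.24, are above 0 in H+G-Exo over H-Exo.

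Other miRNAs that studies of smooth muscle name beside miR-143 and miR-145 were mostly near background. Of 7 contractile-state miRNAs, 4 (miR-143-5p, miR-145b, miR-1a-3p and miR-204-5p) were detected on none of the arrays. miR-133a-3p and miR-133b-3p, best known from striated muscle, were detected in H+G-Exo and N-Exo at signals under the floor, which leaves no difference to report. miR-195a-5p, a miR-15/16 family member that restrains the cell cycle, was the one measured throughout, with 0.0495 ± 0.00749 in H+G-Exo, 0.108 ± 0.00974 in H-Exo and 0.413 ± 0.0179 in N-Exo. It fell 3.83-fold in H-Exo over N-Exo by its probes, although the software's listed totals, given below, were lowest in N-Exo. With its H+G-Exo signal raised to the floor it was 1.65-fold lower in H+G-Exo over H-Exo and fell 6.32-fold in H+G-Exo over N-Exo. Without the floor these folds were 2.18 and 8.34, and without scaling its difference between H+G-Exo and H-Exo was 1.09-fold, also lower. It was the one miRNA of the list measured in H-Exo over N-Exo and in H+G-Exo over H-Exo, and the one of 3 that fell in H+G-Exo over N-Exo.

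Of 7 growth-associated miRNAs, miR-221-5p and miR-222-5p, the opposite strands of the pair, were detected on no array, and 5 were measured on all 3. Of these, 3 of 5 fell in H-Exo over N-Exo, while 3 of 5 fell in H+G-Exo over H-Exo and all 5 in H+G-Exo over N-Exo, with list medians of -1.23, -1.14 and -2.03. Over all miRNAs 10.7%, 26.1% and 26.1% fell, with medians of 0.34, -0.42 and -0.05. Among miRNAs numbered below 3000, to which this list belongs, 21.8%, 39.1% and 44.1% fell, with medians of 0.10, -0.73 and -0.70. Without scaling, 5 of the 5 fell in H-Exo over N-Exo, 0 of 5 in H+G-Exo over H-Exo, where miR-146a-5p rose, and 4 of 5 in H+G-Exo over N-Exo. miR-26a-5p, which represses the differentiation regulator Smad1, fell 3.93-fold, 3.13-fold and 12.3-fold in these comparisons. miR-21a-5p, an abundant stromal miRNA, fell 2.35-fold, 2.72-fold and 6.40-fold. Without scaling miR-26a-5p was 1.57-fold and miR-21a-5p 1.36-fold lower in H+G-Exo over H-Exo.

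miR-146a-5p, a repressor of Traf6 and Irak1, fell 4.39-fold in H-Exo over N-Exo and 4.10-fold in H+G-Exo over N-Exo, and was 1.07-fold higher in H+G-Exo over H-Exo, within the rule. miR-31-5p was 1.81-fold lower in H-Exo over N-Exo, short of the rule, fell 2.20-fold in H+G-Exo over H-Exo and fell 3.99-fold in H+G-Exo over N-Exo. miR-24-3p was 1.93-fold and 1.11-fold lower in the first pair of comparisons, short of the rule, and fell 2.14-fold in H+G-Exo over N-Exo. Without scaling, in H+G-Exo over H-Exo, miR-146a-5p was 2.14-fold higher, miR-24-3p 1.80-fold higher and miR-31-5p 1.10-fold lower. The direction of miR-24-3p and the call of miR-146a-5p and miR-31-5p between these arrays thus depend on the scaling.

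The mesenchymal marker miRNAs moved with the members. Their summed scaled signal was 48.8 in H+G-Exo, 123.5 in H-Exo and 282.4 in N-Exo, and 4, 3 and 5 of 5 fell in the 3 comparisons in the order above, with medians of -1.37, -1.20 and -2.68, beside the same 10.7%, 26.1% and 26.1% of all miRNAs and their medians of 0.34, -0.42 and -0.05. Without scaling the sum was 22903 intensity units in H+G-Exo, 29029 in H-Exo and 117851 in N-Exo, a drop in H+G-Exo of 1.27-fold against H-Exo, and 5, 0 and 5 of 5 fell. Most of the scaled sum was miR-21a-5p, at 29.7 in H+G-Exo, 81.0 in H-Exo and 190.4 in N-Exo. That miRNA is also on the growth-associated list, so the lists overlap. All 5 markers are numbered below 3000, and the larger shares that fell among such miRNAs are given above. miR-199a-3p, one of these markers, had 1.04 ± 0.0450 in H+G-Exo, 3.04 ± 0.163 in H-Exo and 10.7 ± 0.576 in N-Exo. The summed blood markers were at 0.117, 0.314 and 0.248 in the same arrays, with miR-142a-3p, miR-142a-5p, miR-150-5p and miR-144-3p detected nowhere. The other 2, miR-223-3p and miR-451a, were detected on every array. Of these, 0, 1 and 1 fell in the 3 comparisons, with medians of 0.32, -1.06 and -0.74. miR-451a fell 3.02-fold in H+G-Exo over H-Exo and 2.34-fold in H+G-Exo over N-Exo, with its H+G-Exo signal raised to the floor. The endothelial markers miR-126a-3p and miR-126a-5p were detected nowhere, with sums of 0.0452, 0.0287 and 0.0196. Striated muscle markers summed to 0.119, 0.157 and 0.161, with miR-1a-3p, miR-208a-3p and miR-499-5p detected nowhere. miR-206-3p was detected on every array and fell in no comparison. Liver and serum markers summed to 0.0411, 0.0722 and 0.103, with miR-122-5p detected nowhere and miR-192-5p in N-Exo alone. The part of these markers in the members' differences was not tested.

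The miRNAs most like each member were named by the distance between log2 profiles over the 3 arrays, each centred on its own mean, among 561 miRNAs detected on all of them. Nearest to miR-143-3p were miR-99a-5p (distance 0.0826 log2 units), miR-322-5p (0.111) and miR-503-5p (0.138). miR-99a-5p had scaled signals of 0.0789 in H+G-Exo, 0.217 in H-Exo and 0.995 in N-Exo. Nearest to miR-221-3p were miR-30a-3p (0.0832), let-7g-5p (0.0949) and miR-652-3p (0.0972), while its cluster partner miR-222-3p ranked 50th at 0.479.

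Nearest to miR-222-3p were miR-669n (0.0770), miR-181b-5p (0.124) and miR-25-3p (0.133), and miR-221-3p ranked 41st. miR-143-3p lay at a distance of 1.33 from miR-221-3p and 1.78 from miR-222-3p. With 3 arrays many miRNAs have near-identical profiles, and the distances are a description.

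**Figure D5:**
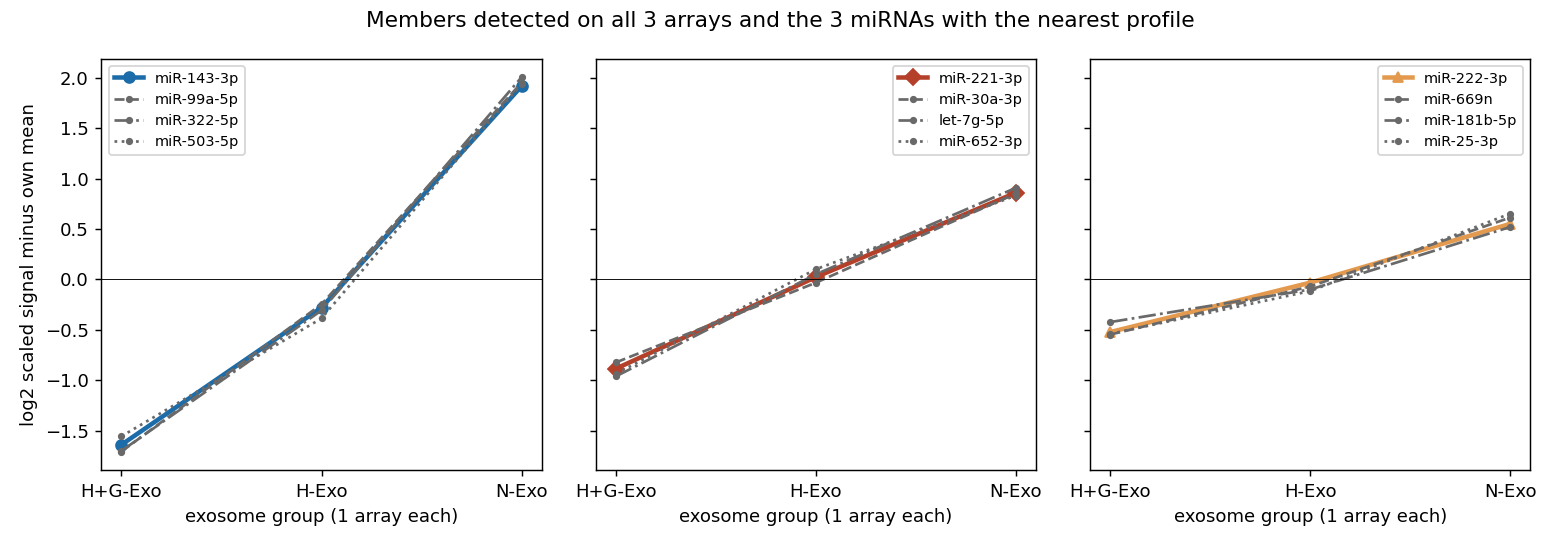
Log2 scaled signal minus the miRNA's own mean over the 3 arrays, by exosome group with 1 array each, for the 3 members detected throughout (coloured) and the 3 nearest miRNAs of each (grey). All lines are lowest in H+G-Exo and highest in N-Exo, with the steepest line in the panel of miR-143-3p and the flattest in that of miR-222-3p. This order depends on the scaling: before it, miR-221-3p and miR-222-3p were lowest in H-Exo.

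The software's own total per miRNA and the deposited value table gave a second reading of the same arrays. For miR-143-3p the log2 values in the authors' deposited table were 3.94 in H+G-Exo, 5.08 in H-Exo and 7.36 in N-Exo, for miR-221-3p 6.60, 7.28 and 8.09, and for miR-222-3p 6.04, 6.14 and 6.83. The order of the arrays in the deposited table was that of the scaled probe signals in each case. The software's totals, which are not scaled, had H+G-Exo above H-Exo for miR-221-3p (110.6 and 105.0) and miR-222-3p (74.1 and 51.8). For miR-145a-5p the table held 3.24 in H+G-Exo, 2.86 in H-Exo and 5.37 in N-Exo. On the H-Exo array the software listed a total of 28.9 for this miRNA while its 2 probes summed to 7.73, an excess of 21.2 that its own probes do not hold. Log2 differences from that listed total are therefore left out of the account above. For miR-195a-5p the listed totals were 81.5 in H+G-Exo, 102.7 in H-Exo and 59.95 in N-Exo. Its brighter probe averaged 23.2, 25.4 and 172.3 intensity units there, so totals and probes gave different orders. The mismatch was thus not limited to miR-145a-5p, and its cause was not tested. For miR-143-3p, miR-221-3p and miR-222-3p the listed totals matched the sums of their probes on every array. miR-145a-3p was listed as not detected on all 3 arrays.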

How the data were processed

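Per the file headers, the authors quantified 3 one-colour Cy3 arrays, and the submitters' processing notes name Agilent Feature Extraction 10.7.1.1. The deposited array files hold intensity values per spot, background-subtracted by the software and not scaled between arrays. The deposited value table was read as log2 values: over the miRNAs above its lowest value it correlated at 0.978, 0.997 and 0.972 with the log2 sum of a miRNA's probe totals in H+G-Exo, H-Exo and N-Exo, against 0.385, 0.480 and 0.457 unlogged; its columns share a mean and maximum, have medians of -3.30, -3.00 and -3.32, and the sources used here give no normalization method. Groups follow the treatment in the labels. The labels' protocols name a cRNA amplification kit and a cDNA kit, so the labelling chemistry is uncertain.

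Each array had 58594 spots, of which 2164 control spots were left out, leaving 4415 probes for 1881 miRNAs. Outlier spots were left out (1466, 1369 and 1568) and 0 were saturated; over the spots of a detected probe the coefficient of variation had a median of 13.4%, 14.0% and 13.5%, and the number of arrays limits precision. Processed intensity was averaged per probe, divided by the 75th percentile, raised to the floor and put on the log2 scale; a miRNA took its brightest probe. For a miRNA detected on 1 of 2 arrays, the fold is a lower bound. Fold intervals and SEs cover spots only, and a signal raised to the floor adds no error to them.

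The members, the related lists (contractile and proliferative, 7 miRNAs each), the 5 marker lists and the tests were chosen with earlier results of these data known. Named miRNAs were all members, up to 4 of each list with the largest difference in a comparison, and the 3 nearest profiles of each member; in the related lists every miRNA is given. Alternatives were 6 other scalings, normexp with an offset of 50 (limma 3.58.1, R 4.3.3), outlier spots kept, the mean of probes, each probe, stricter detection, a doubled floor, the software's totals and the deposited table. Python 3.11.15, numpy 2.4.6 and pandas 2.3.3 were used. Probe coordinates were not checked against a genome.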

Additional observations from a re-analysis of the deposited data

How the results depend on the processing

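No paired analysis was possible because each group is 1 array and the labels give no replicate numbers. Weak signals and the unequal scale of the arrays limit the results: miR-143-3p in H+G-Exo and miR-145a-5p lie near the detection limit, and H+G-Exo over H-Exo depends on the scaling. miR-143-3p kept its direction and its call under all 16 settings in H-Exo over N-Exo (-3.04 to -1.33) and in H+G-Exo over N-Exo (-3.63 to -1.84), as did miR-221-3p in H+G-Exo over N-Exo (-1.75 to -1.42). In H+G-Exo over H-Exo, miR-143-3p stayed below the rule at -0.74 with the floor doubled, -0.46 with hybridization spike-in scaling, -0.69 with labelling spike-in scaling, -0.95 with the median as scale, -0.36 without scaling and -0.51 with normexp. miR-145a-5p read -2.07 there and -0.17 in H-Exo over N-Exo with the software's total, which exceeds its probes' sum on the H-Exo array, and -0.42 with normexp in both comparisons with N-Exo. In H-Exo over N-Exo, miR-221-3p passed the rule at -1.06 with the 75th percentile of all probes, -1.68 and -1.18 with hybridization and labelling spike-ins, -1.67 without scaling and -1.03 with the software's total, and miR-222-3p at -1.42 with hybridization spike-ins and -1.41 without scaling. In H+G-Exo over N-Exo, miR-222-3p missed the rule at -0.96 with the 75th percentile of all probes, -0.78 in the deposited table, -0.75 with labelling spike-ins, -0.76 with the median, -0.91 without scaling, -0.83 with normexp, -0.82 with quantile normalization and -0.94 with the software's total. The contrast of miR-143-3p with miR-221-3p turned to 0.17 with the floor doubled and 0.24 with normexp in H+G-Exo over H-Exo; it was -1.19 and -0.36 under these in H+G-Exo over N-Exo, and -0.60 with normexp and -1.55 with quantile normalization in H-Exo over N-Exo. Against miR-222-3p it was -0.25 with the floor doubled and -0.02 with normexp in H+G-Exo over H-Exo, while the same settings gave -1.86 and -1.01 for H+G-Exo over N-Exo, and normexp gave -0.99 in H-Exo over N-Exo; miR-221-3p minus miR-222-3p was -0.64 with quantile normalization in H+G-Exo over H-Exo. With normexp 45, 87 and 156 miRNAs passed the rule in H-Exo over N-Exo, H+G-Exo over H-Exo and H+G-Exo over N-Exo, against 87, 183 and 269; in H-Exo over N-Exo 137 did with hybridization spike-ins and 135 without scaling. The share of calls that were higher was 28.7%, 19.1% and 41.3% in the 3 comparisons, and over the other scalings it ran between 0.73% and 22.4%, 38.9% and 96.4%, and 44.3% and 58.7%. miR-145a-3p gave no value under any setting. Apart from the settings' own construction, the cause of these shifts was not tested. The values of the related and marker lists without scaling or without the floor were chosen after seeing the data.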
